A study of Mus musculus with 8 samples.

Results

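The imprinted genes of distal mouse chromosome 7, from Igf2 and H19 to Cdkn1c and Phlda2, were followed in mouse embryonic stem (ES) cells on Affymetrix arrays. The set held 9 gene names, and its members were all probe sets whose only gene symbol in the platform annotation was one of these names. That gave 17 of 45101 probe sets, for 8 of the 9 names: Igf2, Cdkn1c, Phlda2, Ascl2, Kcnq1ot1, Slc22a18, Nap1l4 and Cd81. H19 had no probe set of its own, and the probe set annotated to both Mir675 and H19 is described separately below without being given to either gene. Of the 8 measured genes, 6 passed the filter on dim genes that left 10916 of 18193 genes for testing, and Kcnq1ot1 and Slc22a18 did not.

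Arrays came from 4 groups of 2: Rbp2-/- cells after 6 days without leukemia inhibitory factor (LIF), Rbp2f/f cells after 6 days without LIF, Rbp2-/- cells with LIF and Rbp2f/f cells with LIF. LIF is the cytokine that holds mouse ES cells undifferentiated, and Rbp2, read here as the gene now named Kdm5a, encodes a histone H3 lysine 4 demethylase. The Rbp2f/f cells carry the floxed allele and serve as the control. The labels call the arrays of a group biological replicates without naming cultures, clones or parental lines, so a p-value here reflects only how far these samples scatter, which may in part be technical.

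Imprinted genes are expressed mainly from the chromosome inherited from one parent. In the Igf2-H19 domain, the insulator protein CTCF binds an unmethylated control region on the maternal chromosome and keeps shared enhancers from Igf2, so that H19 is maternal and the growth factor gene Igf2 paternal in most embryonic tissues. In the neighbouring Cdkn1c domain, the paternally expressed long noncoding RNA Kcnq1ot1 silences Cdkn1c, Phlda2, Ascl2 and others on its own chromosome, some of them only in the placenta. The arrays measured total RNA of each gene, so they cannot tell the parental alleles apart, and in bulk RNA fewer cells of a type and less RNA per cell cannot be told apart either.

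The labels were checked first. Kdm5a read 100 and 80.2 in Rbp2-/- without LIF, 225.7 and 246.6 in Rbp2f/f cells without LIF, 31.2 and 30.6 in Rbp2-/- cells with LIF, and 128.2 and 167.2 in Rbp2f/f cells with LIF, so every Rbp2-/- array was below the Rbp2f/f arrays of its medium. All 10 undifferentiated ES cell markers passed the test as lower without LIF in both genotypes. The trimmed mean intensity was 77.5 for replicate 2 of Rbp2-/- with LIF, or 65.5% of the average over the remaining arrays, whose values ran between 110.5 and 128.4. The median log2 difference over all genes was 0.39 for withdrawal in Rbp2-/-, 0.07 for that in Rbp2f/f, -0.28 for genotype with LIF, 0.02 for genotype without LIF, -0.13 for genotype averaged over both media and 0.31 for the interaction. All log2 differences below are on the log2(intensity + 16) scale, relative to that median, with the standard error of the limma fit. Their adjusted p tests the difference before the median is taken off and is adjusted over all 10916 genes.

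Promoters of the 3 members that passed the test after LIF withdrawal are shown here, because the ARID domain of RBP2 is known from in vitro work to bind the letters CCGCCC. The sequences are RefSeq's on build GRCm38.p6 and run from 250 bases before to 50 bases after an annotated start, 5′ to 3′ on the gene's strand. CCGCCC, or its reverse complement GGGCGG on the strand shown, is in capitals.
Igf2 window 3, chr7:142658755-142659054, minus strand: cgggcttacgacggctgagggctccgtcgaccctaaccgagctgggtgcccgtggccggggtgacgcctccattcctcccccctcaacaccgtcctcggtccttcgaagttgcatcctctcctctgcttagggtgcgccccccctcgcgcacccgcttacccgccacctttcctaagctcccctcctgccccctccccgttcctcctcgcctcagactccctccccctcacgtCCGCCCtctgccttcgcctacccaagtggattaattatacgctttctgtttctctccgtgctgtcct
Igf2 window 4, chr7:142657447-142657746, minus strand: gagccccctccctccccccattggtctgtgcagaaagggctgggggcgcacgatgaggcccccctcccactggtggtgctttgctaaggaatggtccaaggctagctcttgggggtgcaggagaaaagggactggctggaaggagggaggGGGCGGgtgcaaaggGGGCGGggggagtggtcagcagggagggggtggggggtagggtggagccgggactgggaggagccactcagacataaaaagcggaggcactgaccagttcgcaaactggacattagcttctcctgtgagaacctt
Phlda2, chr7:143502475-143502774, minus strand: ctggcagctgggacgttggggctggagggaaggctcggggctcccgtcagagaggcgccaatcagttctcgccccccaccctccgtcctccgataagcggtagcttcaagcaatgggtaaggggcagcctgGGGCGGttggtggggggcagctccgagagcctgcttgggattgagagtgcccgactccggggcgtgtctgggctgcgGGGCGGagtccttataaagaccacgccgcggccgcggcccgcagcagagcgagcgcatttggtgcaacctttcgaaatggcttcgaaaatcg
Cd81, chr7:143052500-143052799, plus strand: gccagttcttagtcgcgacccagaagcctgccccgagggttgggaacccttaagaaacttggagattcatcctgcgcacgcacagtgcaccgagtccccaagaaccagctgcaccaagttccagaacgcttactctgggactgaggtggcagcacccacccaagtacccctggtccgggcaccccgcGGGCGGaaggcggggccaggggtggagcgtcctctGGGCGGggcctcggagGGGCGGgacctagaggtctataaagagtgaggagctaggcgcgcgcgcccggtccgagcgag
Both forms are also the core of the common GC box. The table held 9 windows for 6 members, and 5 of the 9 held the motif on either strand, against 35.7% of all 32851 promoter windows. The Igf2 windows numbered 1 and 2 held none, number 3 held 1 and number 4 held 2. The Phlda2 window held 2 and the Cd81 window 3, the Ascl2 window held 1, and the Kcnq1ot1 and Slc22a18 windows held none. H19, Cdkn1c and Nap1l4 had no entry. These windows differ in CpG content: 24, 26, 23 and 23 CpG dinucleotides in Igf2 window 3, Phlda2, Cd81 and Ascl2, but 7 in Igf2 window 4, against a median of 7 over all windows. A match is a description of letters only, and neither binding nor the start in use was measured by these arrays.

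Igf2 had the largest withdrawal difference of the 6 tested members in both genotypes. It encodes insulin-like growth factor II, the main fetal growth factor of the region. The brightest of its probe sets read 3984 and 3526.6 in Rbp2-/- without LIF, 4705.5 and 3598.6 in Rbp2f/f cells without LIF, 382.1 and 637.1 in Rbp2-/- cells with LIF, and 879.4 and 473 in Rbp2f/f cells with LIF. Every array without LIF was above every array with LIF, and the genotypes overlapped in both media. The group means were 3755 ± 323 in Rbp2-/- without LIF, 4152 ± 783 in Rbp2f/f cells without LIF, 510 ± 180 in Rbp2-/- cells with LIF and 676 ± 287 in Rbp2f/f cells with LIF (SD, n = 2 each), so the mean was 7.37 times higher after withdrawal in Rbp2-/- and 6.14 times higher in Rbp2f/f. Relative to the median of all genes, Igf2 rose by 2.50 ± 0.31 in Rbp2-/- (limma, adjusted p = 2.9e-05) and by 2.58 ± 0.31 in Rbp2f/f (adjusted p = 4.4e-05). The difference between these responses was -0.07 ± 0.43, with a 95% interval from -0.99 to 0.85 (adjusted p = 0.82). The genotype difference was -0.16 ± 0.31 without LIF, with a 95% interval from -0.81 to 0.49 (adjusted p = 0.94), and -0.10 ± 0.31 with LIF, from -0.75 to 0.55 (adjusted p = 0.52).

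The dimmer Igf2 probe set went the same way. It read 63.3 and 56.1 in Rbp2-/- without LIF, 67.7 and 63.9 in Rbp2f/f cells without LIF, 13.6 and 30.9 in Rbp2-/- cells with LIF, and 10 and 19.9 in Rbp2f/f cells with LIF. When every probe set with a single symbol was fitted on its own, it was higher after withdrawal by 0.64 ± 0.30 in Rbp2-/- (limma, adjusted p = 0.035) and by 1.35 ± 0.30 in Rbp2f/f (adjusted p = 0.0079). As a sum, markers of mesoderm, extraembryonic endoderm, feeder fibroblasts and trophoblast moved with Igf2, while those of neuroectoderm did not. Without its brightest marker, Hand1, a setting chosen after seeing the data, the trophoblast sum overlapped between media in both genotypes. Of 3 tested neuroectoderm markers, 2 passed as lower and 0 as higher without LIF in each genotype. Of 8 tested trophoblast markers, 3 passed as higher and 1 as lower in Rbp2-/-, and 4 and 1 in Rbp2f/f. All 6 tested mesoderm markers passed as higher in each genotype. Of 6 tested extraembryonic endoderm markers, 4 passed as higher in Rbp2-/- and 5 in Rbp2f/f. For 11 tested feeder fibroblast markers these counts were 6 and 8, and 0 markers of these 3 lists passed as lower. The shares of all genes were 19.6% higher and 3.2% lower in Rbp2-/-, and 13.2% and 6.8% in Rbp2f/f. The summed level of 11 mesoderm markers was 2798 and 3681 in Rbp2-/- without LIF, 1811 and 1860 in Rbp2f/f cells without LIF, 376 and 464 in Rbp2-/- cells with LIF, and 338 and 244 in Rbp2f/f cells with LIF. The 12 extraembryonic endoderm markers summed to between 838 and 1084 in the arrays without LIF and between 286 and 393 in those with LIF, and the 13 feeder fibroblast markers to between 2002 and 4621 and between 505 and 1078. The part of these cells in the Igf2 level was not tested.

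**Figure D1:**
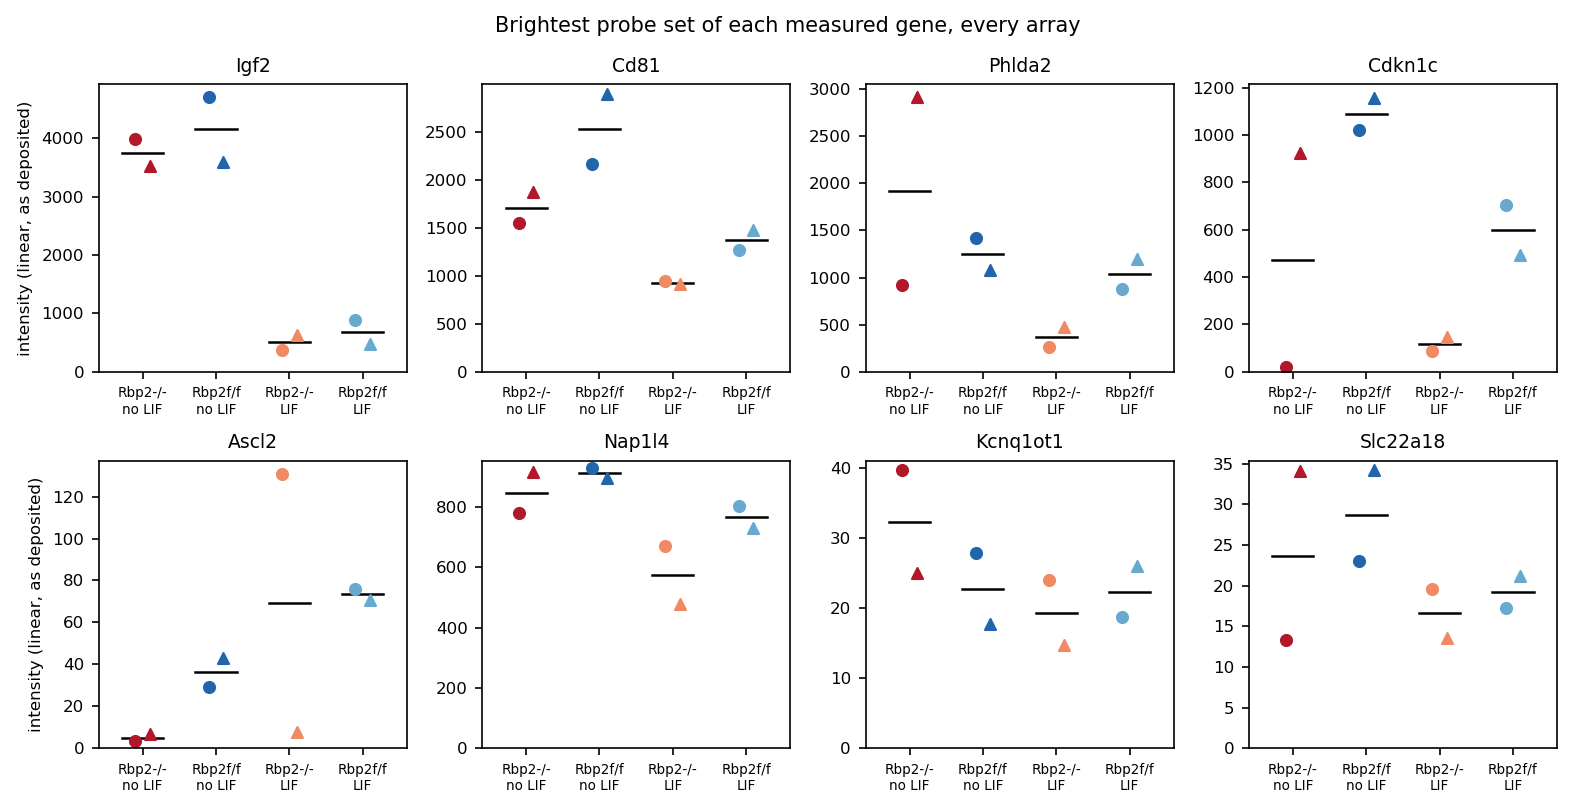
Intensity (linear axis from 0, 1 panel per gene) of the brightest probe set of the 8 measured genes in the 4 groups, with circles for replicate 1, triangles for replicate 2 and a line for the mean of both. Igf2 and Cd81 are higher in every array without LIF than in the arrays with LIF of the same genotype, while replicates of Rbp2-/- without LIF lie far apart for Cdkn1c, at 19.1 and 925.3.

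Phlda2 rose after LIF withdrawal in Rbp2-/- cells. It encodes a pleckstrin homology domain protein that restrains placental growth. It read 923.1 and 2915.5 in Rbp2-/- without LIF, 1415.8 and 1085.4 in Rbp2f/f cells without LIF, 264.4 and 475.3 in Rbp2-/- cells with LIF, and 873.9 and 1200 in Rbp2f/f cells with LIF. The Rbp2-/- arrays did not overlap between media, although their replicates without LIF spread widely, and the Rbp2f/f arrays overlapped. The mean was 5.19 times higher after withdrawal in Rbp2-/-, a log2 difference of 1.78 ± 0.42 (limma, adjusted p = 0.0024, and 0.043 after quantile normalization). In Rbp2f/f the withdrawal difference was 0.21 ± 0.42 (adjusted p = 0.70). The difference between the responses was 1.58 ± 0.59, with an adjusted p of 0.36 for the interaction, so the responses were not shown to differ. With LIF, both Rbp2-/- arrays were below both Rbp2f/f arrays, by -1.21 ± 0.42 (adjusted p = 0.13), and without LIF the difference was 0.38 ± 0.42 (adjusted p = 0.84).

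Cd81 encodes a tetraspanin of the cell surface and lies between Ascl2 and Cdkn1c on the chromosome. It read 1544.2 and 1867.3 in Rbp2-/- without LIF, 2158 and 2891.4 in Rbp2f/f cells without LIF, 941.8 and 915.5 in Rbp2-/- cells with LIF, and 1266.7 and 1473.1 in Rbp2f/f cells with LIF. Arrays without LIF were above those with LIF in each genotype, and Rbp2-/- arrays were below Rbp2f/f arrays in each medium, with no overlap in any of these comparisons. Cd81 rose on withdrawal by 0.80 ± 0.23 in Rbp2f/f (limma, adjusted p = 0.018). In Rbp2-/- it passed the test as deposited (0.47 ± 0.23 relative to all genes, adjusted p = 0.017), but its 95% interval ran from -0.03 to 0.97 and its adjusted p was 0.13 after quantile normalization. The genotype differences were -0.58 ± 0.23 without LIF (adjusted p = 0.43) and -0.27 ± 0.23 with LIF (adjusted p = 0.25), and -0.42 ± 0.17 averaged over both media (adjusted p = 0.13). The interaction was -0.31 ± 0.33 (adjusted p = 1.00). The Rbp2f/f call was lost without replicate 2 of Rbp2f/f without LIF (adjusted p = 0.31) or without replicate 1 of Rbp2f/f with LIF (adjusted p = 0.13).

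**Figure D2:**
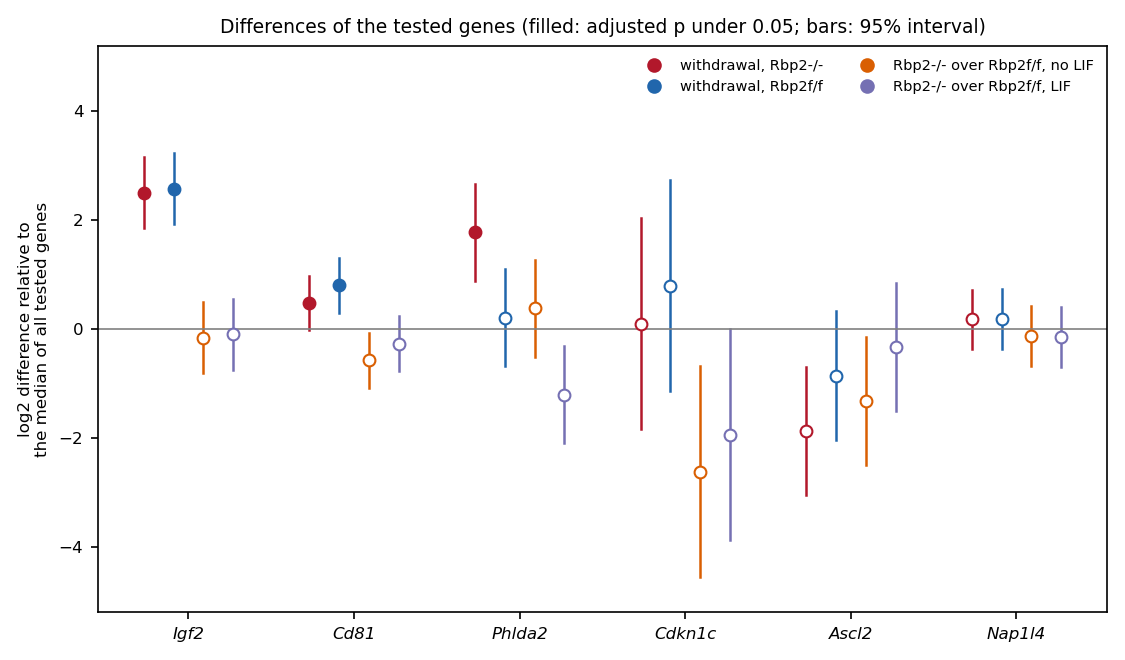
Log2 difference of each tested member in the withdrawal and genotype comparisons, relative to the median of all genes, with bars for the 95% interval of the limma fit and filled symbols for an adjusted p under 0.05. Filled symbols stand for Igf2 and Cd81 in both withdrawal comparisons and Phlda2 in that of Rbp2-/-, and no genotype difference is filled.

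Taking the 6 tested members together, 3 passed the test as higher and 0 as lower after withdrawal in Rbp2-/-, against 22.8% of all genes in either direction, 19.6% higher and 3.2% lower. After quantile normalization 2 of the 6 passed there, against 15.2% of genes. In Rbp2f/f, 2 of the 6 passed as higher and 0 as lower, against 20% of all genes, 13.2% higher and 6.8% lower, and again 2 of 6 after quantile normalization, against 26.6%. Arrays did not overlap for 4 members as higher and 1 as lower in each genotype, against 51.9% and 7.54% of all genes in Rbp2-/- and 38.3% and 29.9% in Rbp2f/f. The median difference over the 6 members was 0.32 in Rbp2-/- and 0.50 in Rbp2f/f, relative to all genes. For genotype, 0 of 6 members passed with LIF (0.229% of all genes), without LIF (0.0275%) or averaged over both media (0.522%). At an unadjusted p under 0.05, 3 of 6 members passed in each of these 3 comparisons, against 17.6%, 9.99% and 15.2% of all genes, and 0, 2 and 2 did after quantile normalization, against 13.1%, 14.2% and 16.6%. No gene at all passed for the interaction, where 1 member and 1268 genes had an unadjusted p under 0.05. After quantile normalization 0 members passed a genotype comparison, against 0%, 0% and 0.128% of all genes. Arrays did not overlap for 4 members as lower and 0 as higher in Rbp2-/- with LIF, against 39.2% and 4.42% of all genes, and for 3 as lower and 0 as higher without LIF, against 22.8% and 30.5%. The members' median genotype difference was -0.30 with LIF, -0.37 without LIF and -0.41 averaged.

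Cdkn1c, the gene of the CDK inhibitor p57KIP2, had the largest genotype difference of the tested members and, on the log2 scale, the widest replicate spread. It read 19.1 and 925.3 in Rbp2-/- without LIF, 1019.5 and 1156.1 in Rbp2f/f cells without LIF, 88.2 and 147.5 in Rbp2-/- cells with LIF, and 706.2 and 493.2 in Rbp2f/f cells with LIF. Every Rbp2-/- array was below the Rbp2f/f arrays of its medium. The means were 472 ± 641 in Rbp2-/- and 1088 ± 96.6 in Rbp2f/f cells without LIF, and 118 ± 41.9 in Rbp2-/- and 600 ± 151 in Rbp2f/f cells with LIF (SD, n = 2 each). The difference was -2.62 ± 0.91 without LIF (95% interval -4.56 to -0.69, limma, adjusted p = 0.30) and -1.94 ± 0.91 with LIF (-3.87 to -0.00, adjusted p = 0.24). Averaged over both media it was -2.27 ± 0.64 (adjusted p = 0.097), which missed the threshold.

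Replicate 1 of Rbp2-/- without LIF, at 19.1, decided the size of several Cdkn1c values. Without replicate 2 of that group, the genotype difference without LIF was -4.94 (limma, adjusted p = 2.3e-06), the averaged one -3.43 (adjusted p = 3.9e-07) and the interaction -3.00 (adjusted p = 0.047), and the withdrawal difference in Rbp2-/- was -2.22 (adjusted p = 0.0055). Without replicate 1, the genotype difference without LIF was -0.31 and the withdrawal difference in Rbp2-/- was 2.40 (adjusted p = 0.00031), so both single arrays passed the withdrawal test in opposite directions. In these fits the remaining array of the group was assumed to vary like the other groups. With LIF, the genotype difference of -1.94 had adjusted p = 0.0083 without replicate 1 and 0.0088 without replicate 2 of that group, with standard errors of 0.32 in both fits. With all arrays, withdrawal gave 0.09 ± 0.91 in Rbp2-/- (adjusted p = 0.73), 0.80 ± 0.91 in Rbp2f/f (adjusted p = 0.55) and -0.69 ± 1.29 for the interaction (adjusted p = 0.91).

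The same pair of arrays differed in some cell type markers. Mixl1, a transcription factor of the primitive streak, read 139 and 1145.8 in replicates 1 and 2 of Rbp2-/- without LIF, and Eomes, a factor of trophoblast and early mesendoderm, 159.5 and 833.1. Tdgf1, a Nodal co-receptor, read 173.3 and 982.3, while the collagen gene Col1a1 read 2811.2 and 716.1. These 4 genes were picked from the marker lists after their values were seen, and the lists they came from were split. Of the mesoderm markers, 4 were higher and 7 lower in replicate 1 than in replicate 2. The split was 5 and 6 for the trophoblast markers and 4 and 6 for the undifferentiated ES cell markers. The 13 feeder fibroblast markers summed to 4621 in replicate 1 and 2021 in replicate 2, but to 1809 and 1305 without Col1a1, and 7 of the 13 were higher and 6 lower in replicate 1, so the list did not move together. The part of these markers in the Cdkn1c and Phlda2 levels was not tested.

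Ascl2, a basic helix-loop-helix factor needed for the spongiotrophoblast of the placenta, was low throughout and lower without LIF. The brightest of its probe sets read 3.3 and 6.9 in Rbp2-/- without LIF, 29.3 and 43.1 in Rbp2f/f cells without LIF, 130.6 and 7.6 in Rbp2-/- cells with LIF, and 75.9 and 70.9 in Rbp2f/f cells with LIF. The next read 2 and 9.4, 16.5 and 9.6, 99.3 and 15, and 38.7 and 71.4 in the same order of groups. The last of its 3 probe sets read 7.6 and 3.8, 22.1 and 16.3, 57.7 and 13.4, and 53.3 and 39.8. All 3 probe sets were lower without LIF with no overlap in both genotypes, and without LIF also lower in Rbp2-/- than Rbp2f/f cells. Some of these margins were very small at dim intensities. They included 6.9 against 7.6 between media in Rbp2-/- for the brightest, and 9.4 against 9.6 between genotypes without LIF for the next. The withdrawal difference was -1.87 ± 0.55 in Rbp2-/- (limma, adjusted p = 0.064) and -0.85 ± 0.55 in Rbp2f/f (adjusted p = 0.35), and the genotype difference without LIF was -1.32 ± 0.55 (adjusted p = 0.43), none of which passed.

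The dim array, replicate 2 of Rbp2-/- with LIF, was also the one where Ascl2 was low at 7.6. Without it, the withdrawal difference in Rbp2-/- was -2.98 (limma, adjusted p = 0.0010), and that in Rbp2f/f stayed at -0.85 (adjusted p = 0.040). The genotype difference with LIF was -0.32 ± 0.55 with all arrays (adjusted p = 0.57) and 0.80 without that array. The summed level of the 10 undifferentiated ES cell markers was 13676 in that array, against 21004 in the other Rbp2-/- array with LIF and 22528 and 22623 in the Rbp2f/f arrays with LIF. The arrays without LIF summed to between 3501 and 4862.

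**Figure D3:**
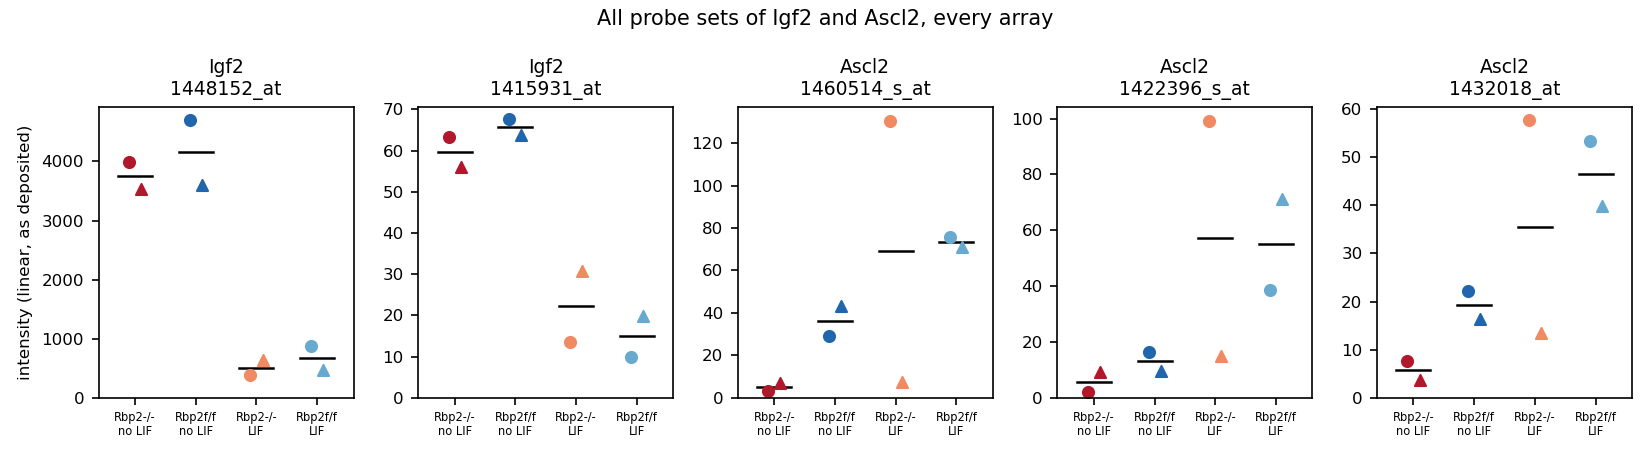
Intensity (linear axis from 0, 1 panel per probe set) of the 2 Igf2 and 3 Ascl2 probe sets in each of the 8 arrays, with circles for replicate 1, triangles for replicate 2 and a line for the mean of both. Both Igf2 probe sets are higher and all 3 Ascl2 probe sets lower in arrays without LIF than in arrays with LIF of the same genotype.

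Nap1l4, a nucleosome assembly protein gene at the outer edge of the Cdkn1c domain, varied least. It read 779.8 and 916.5 in Rbp2-/- without LIF, 930.2 and 896.4 in Rbp2f/f cells without LIF, 672 and 479.9 in Rbp2-/- cells with LIF, and 804.4 and 730.6 in Rbp2f/f cells with LIF. Arrays without LIF were above those with LIF in each genotype by small margins, and Rbp2-/- arrays were below Rbp2f/f arrays with LIF. The withdrawal difference was 0.18 ± 0.26 in Rbp2-/- (95% interval -0.37 to 0.72, limma, adjusted p = 0.13) and 0.18 ± 0.26 in Rbp2f/f (-0.37 to 0.73, adjusted p = 0.55). The genotype difference was -0.13 ± 0.26 without LIF and -0.14 ± 0.26 with LIF.

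The noncoding RNA Kcnq1ot1 and the transporter gene Slc22a18 were too dim to test. The brightest of the 6 Kcnq1ot1 probe sets read 39.8 and 25 in Rbp2-/- without LIF, 27.9 and 17.7 in Rbp2f/f cells without LIF, 24 and 14.8 in Rbp2-/- cells with LIF, and 18.7 and 26 in Rbp2f/f cells with LIF. No Kcnq1ot1 probe set exceeded 39.8 in any array. The brighter Slc22a18 probe set read 13.3 and 34.1, 23.1 and 34.3, 19.6 and 13.6, and 17.3 and 21.2 in the same order of groups. Neither gene passed the test in any comparison when the filter was left out, so no difference was detectable at these intensities.

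The probe set annotated to both Mir675 and H19, a microRNA gene and the long noncoding RNA it lies within, had its highest values in Rbp2-/- cells without LIF. It read 7937.2 and 5728.9 in Rbp2-/- without LIF, 728.3 and 1908.9 in Rbp2f/f cells without LIF, 3338.8 and 218.5 in Rbp2-/- cells with LIF, and 77.8 and 662.5 in Rbp2f/f cells with LIF. Both Rbp2-/- arrays without LIF were above all other arrays, while the other groups spread widely. Within each genotype, the arrays without LIF were above those with LIF, with no overlap. In a fit over all probe sets, those with several symbols included, which was chosen after seeing the data, the genotype difference was 2.44 ± 1.01 without LIF (limma, adjusted p = 0.52) and 2.05 ± 1.01 with LIF (adjusted p = 0.43). Averaged over both media it was 2.25 ± 0.71 (adjusted p = 0.25). The withdrawal difference was 2.58 ± 1.01 in Rbp2-/- (adjusted p = 0.074) and 2.20 ± 1.01 in Rbp2f/f (adjusted p = 0.18). None of these passed the test, and since the probe set is named for a pair of genes its values were counted for neither.

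Along the chromosome, the members did not share 1 direction. In map order, the withdrawal difference in Rbp2-/- was 2.50 for Igf2, -1.87 for Ascl2, 0.47 for Cd81, 0.09 for Cdkn1c, 1.78 for Phlda2 and 0.18 for Nap1l4, and in Rbp2f/f it was 2.58, -0.85, 0.80, 0.80, 0.21 and 0.18 in the same order. Of 16 other genes of the region, 9 were tested, and 3 rose on withdrawal in each genotype. These were Dhcr7, Lsp1 and Nadsyn1 in Rbp2-/-, and Osbpl5, Ctsd and Lsp1 in Rbp2f/f. The shares of all genes that rose were 19.6% in Rbp2-/- and 13.2% in Rbp2f/f. Of the Rbp2-/- calls, 1 remained after quantile normalization, that of Dhcr7. In Rbp2f/f, 3 passed as higher and 1 as lower after quantile normalization. The shares of all genes were then 15.2% in Rbp2-/- and 26.6% in Rbp2f/f, in either direction. Cars was lower without LIF in Rbp2f/f with no overlap, but missed the threshold as deposited (-0.83 ± 0.28, limma, adjusted p = 0.068). Osbpl5, a lipid transfer protein gene beyond Phlda2 that is imprinted in placenta, read 14.3 and 67.5 in Rbp2-/- without LIF, 106.5 and 137.3 in Rbp2f/f cells without LIF, 5.1 and 25.3 in Rbp2-/- cells with LIF, and 7 and 5.7 in Rbp2f/f cells with LIF. It rose by 2.55 ± 0.42 in Rbp2f/f (limma, adjusted p = 0.00059). Its interaction was -2.16 ± 0.59 (adjusted p = 0.36). None of these 9 genes passed a genotype comparison by limma. At an unadjusted p under 0.05, 2 did with LIF, 2 without LIF and 2 averaged, against 17.6%, 9.99% and 15.2% of all genes. The counts were 2, 5 and 3 after quantile normalization, against 13.1%, 14.2% and 16.6%.

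**Figure D4:**
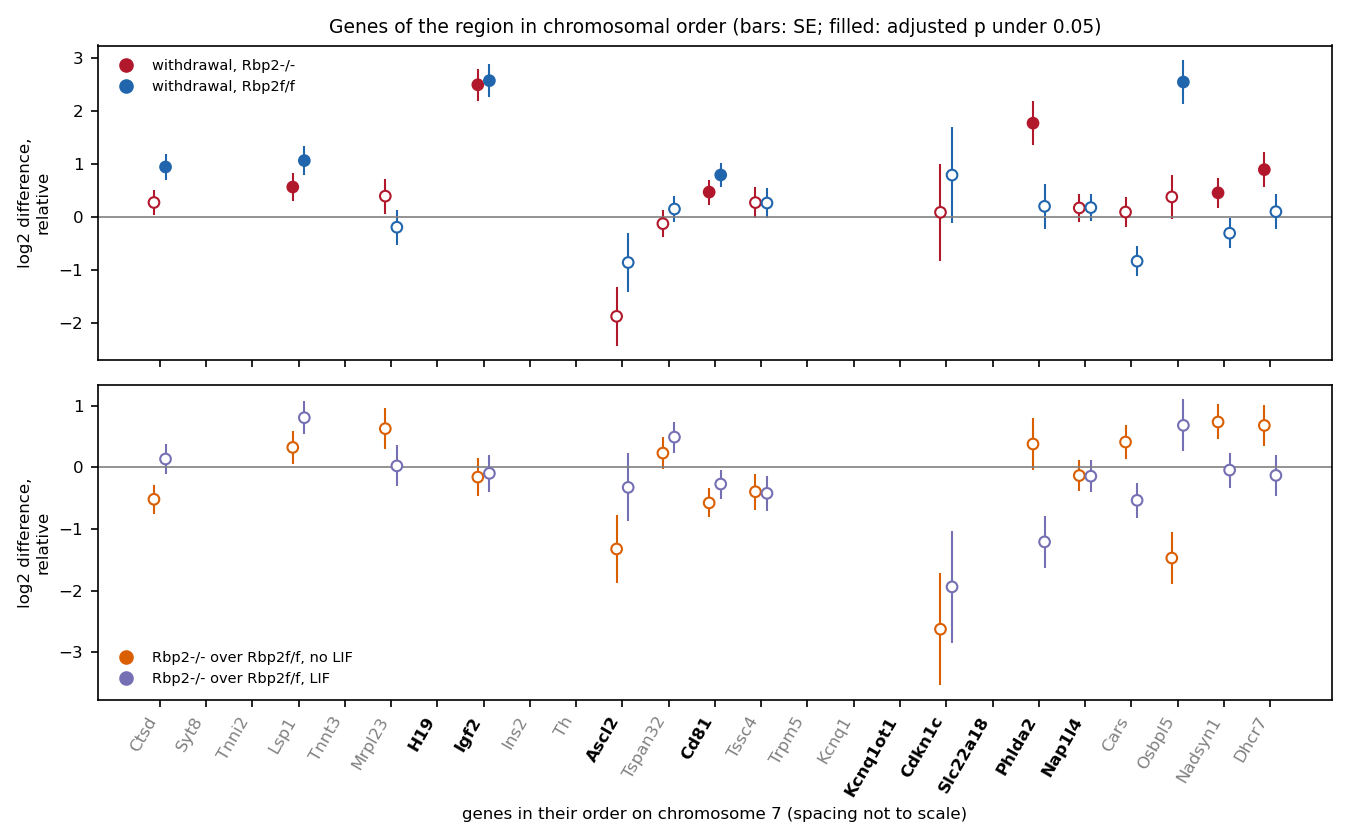
Log2 difference relative to all genes for the tested genes of the region in their order along chromosome 7, with bars for the standard error, for withdrawal (upper panel) and genotype (lower panel). Filled symbols mark an adjusted p under 0.05, and genes with no symbol were not tested. Among the genes drawn, Igf2, at 2.50 in Rbp2-/- and 2.58 in Rbp2f/f, stands beside genes of small or opposite difference. Ascl2, for example, is at -1.87 and -0.85, neither of which passed. H19, next to Igf2 in this order, has no symbol. The mean of the probe set it shares with Mir675 was 3.84 times higher after withdrawal in Rbp2-/- and 3.56 times in Rbp2f/f, without passing the test.

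IGF2 acts through the receptor gene products of Igf1r and Insr, is removed by the receptor encoded by Igf2r, and is held by the IGF-binding proteins. A list of the IGF system held receptor, binding protein and adaptor genes, besides Pappa and the IGF2 mRNA-binding protein genes Igf2bp1 and Igf2bp3. Its ligand gene Igf1 did not pass the filter on dim genes. Of its 15 tested genes, 9 rose and 0 fell in Rbp2-/-, and 6 rose and 0 fell in Rbp2f/f. Of all genes, 19.6% rose in Rbp2-/- and 13.2% in Rbp2f/f. After quantile normalization 5 rose and 0 fell in Rbp2-/-, and 6 rose and 0 fell in Rbp2f/f. There 15.2% and 26.6% of all genes passed in either direction. The list's median was 0.79 in Rbp2-/- and 0.92 in Rbp2f/f, relative to all genes. Igfbp4, which binds IGF2 outside the cell, read 4915.6 and 4685.4 in Rbp2-/- without LIF, 4769.4 and 4285.3 in Rbp2f/f cells without LIF, 1376.5 and 851.9 in Rbp2-/- cells with LIF, and 530.6 and 334.6 in Rbp2f/f cells with LIF. It rose by 1.75 ± 0.27 in Rbp2-/- and by 3.31 ± 0.27 in Rbp2f/f, and its interaction did not pass (-1.55 ± 0.38, limma, adjusted p = 0.36). Igf2r, itself imprinted, read 334 and 611.1 in Rbp2-/- without LIF, 1131.4 and 875.7 in Rbp2f/f cells without LIF, 208.1 and 166.1 in Rbp2-/- cells with LIF, and 219.2 and 277.2 in Rbp2f/f cells with LIF, and rose by 1.88 ± 0.31 in Rbp2f/f. Its arrays without LIF were above those with LIF in Rbp2-/- too. The mean was 2.53 times higher after withdrawal in Rbp2-/- and 4.04 times higher in Rbp2f/f. For genotype, 1 of the 15 passed in each medium, against 0.0275% of all genes without LIF and 0.229% with LIF. It was the adaptor and imprinted gene Grb10, which fell by 4.04 ± 0.55 without LIF (limma, adjusted p = 0.018). With LIF it fell by 3.10 ± 0.55 (adjusted p = 0.022). After quantile normalization its adjusted p was 0.11 without LIF and 0.15 with LIF.

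A list of factors that keep imprints or silence genes in early embryos and stem cells was read next. Of 21 tested, 7 fell in Rbp2-/-, against 3.2% of all genes, and 11 fell in Rbp2f/f, against 6.8%, with 0 rising in either. After quantile normalization 11 and 13 fell, while 15.2% and 26.6% of all genes passed in either direction. Dnmt3l, the cofactor of de novo DNA methylation, fell by 4.21 ± 0.36 in Rbp2-/- and fell by 4.88 ± 0.36 in Rbp2f/f. Dppa3, which protects methylation in the zygote, fell by 2.69 ± 0.31 in Rbp2-/- and fell by 2.82 ± 0.31 in Rbp2f/f. Tet1, a 5-methylcytosine oxidase, fell by 2.00 ± 0.29 in Rbp2-/- and fell by 2.33 ± 0.29 in Rbp2f/f. Zfp57, a zinc finger protein that binds methylated imprinting control regions, fell by 2.15 ± 0.34 in Rbp2-/-. In Rbp2f/f cells it read 153.4 and 191.3 without LIF and 799.6 and 400.3 with LIF, so it was lower there too, with no overlap. No gene of this list passed a genotype comparison by limma, where 6 had an unadjusted p under 0.05 with LIF, 1 without LIF and 5 averaged over both media. Such a p was found for 17.6%, 9.99% and 15.2% of all genes. After quantile normalization the list's counts were 6, 2 and 6, against 13.1%, 14.2% and 16.6% of all genes.

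Imprinted genes of other regions were read from the same fit. Of 18 tested, 1 was higher and 1 lower in Rbp2-/- with LIF, with the same numbers without LIF. When averaged over both media 3 were higher and 1 lower, where Sgce, Mest and Peg10 rose and Grb10 fell. The shares of all genes called with LIF, without LIF and averaged were 0.229%, 0.0275% and 0.522%. After quantile normalization, 0 passed with LIF, 0 without LIF, and 2 higher and 1 lower averaged, with Peg10 at an adjusted p of 0.070. Mest, a paternally expressed gene like Igf2, read 7473.9 and 6076.4 in Rbp2-/- without LIF, 3358.1 and 2670.3 in Rbp2f/f cells without LIF, 1932.1 and 1551.6 in Rbp2-/- cells with LIF, and 701.2 and 1047.4 in Rbp2f/f cells with LIF. Its averaged genotype difference was 1.22 ± 0.17 (limma, adjusted p = 0.015), while that of Igf2 was -0.12 ± 0.22 (adjusted p = 0.61). On withdrawal, 10 rose and 1 fell in Rbp2-/-, and 8 rose and 3 fell in Rbp2f/f, Mest and Gnas rising in both, against 19.6% of all genes higher and 3.2% lower in Rbp2-/- and 13.2% and 6.8% in Rbp2f/f. After quantile normalization 5 rose and 1 fell in Rbp2-/-, and 7 rose and 3 fell in Rbp2f/f. There 15.2% and 26.6% of all genes passed in either direction.

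Other CDK inhibitors and pocket proteins, the functional relatives of Cdkn1c, were compared by the same fit. Of 8 tested, 4 rose on withdrawal in Rbp2-/-, namely Cdkn3, Cdkn2d, Cdkn1b and Cdkn1a, and 2 in Rbp2f/f, Cdkn1a and Cdkn2b, with 0 falling. Higher calls made up 19.6% of all genes in Rbp2-/- and 13.2% in Rbp2f/f. After quantile normalization 1 remained in each genotype, Cdkn3 in Rbp2-/- and Cdkn1a in Rbp2f/f. There 15.2% and 26.6% of all genes passed in either direction. Cdkn1a, the gene of p21CIP1, rose by 0.61 ± 0.34 in Rbp2-/- (limma, adjusted p = 0.045) and by 1.97 ± 0.34 in Rbp2f/f (adjusted p = 0.00072). None of the 8 passed a genotype comparison by limma, with or without quantile normalization. With an unadjusted p under 0.05, 1 had a genotype difference with LIF, 4 without LIF and 1 averaged, against 17.6%, 9.99% and 15.2% of all genes. The counts were 0, 4 and 1 after quantile normalization, against 13.1%, 14.2% and 16.6%.

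The genes most like each member were ranked by Pearson r over the 8 arrays after quantile normalization, as a description, since all share the same arrays and LIF withdrawal. They were Ttc3, Septin2 and Unc5b for Igf2 (r from 0.988 to 0.996) and Nomo1, Penk and Pde4d for Cdkn1c (0.948 to 0.971). For Phlda2 they were Zfp866, Armcx4 and Gphn (0.934 to 0.955), and for Ascl2 Ywhag, Acp5 and Aurkc (0.965 to 0.977). Cd81 was matched by Rhoq, Stard10 and Rnase4 (0.983 to 0.987) and Nap1l4 by Cnpy4, Sall3 and Foxa2 (0.980 to 0.981). Between members, r was 0.88 for Igf2 and Nap1l4, 0.18 for Igf2 and Cdkn1c, and -0.70 for Igf2 and Ascl2.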

How the data were processed

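The values are intensities on a linear scale that the authors deposited, 1 per probe set and array. How they were summarised, background-corrected and scaled is not named in the labels or headers; the scale looks linear and uncentred, and 8 arrays limit the precision. Per the labels, RNA was column-purified with DNase digestion and labelled with biotin. Each gene was represented by its single-symbol probe set of highest mean log2 value, and genes below the 40th percentile of these means were dropped. Intensities were taken as log2(value + 16), which understates changes of dim genes, and fitted as 4 group means with limma 3.58.1 (lmFit, eBayes with a mean-variance trend) in R 4.3.3. The fit had 4 residual and 11.2 prior degrees of freedom, and Benjamini-Hochberg adjusted p-values under 0.05 were called. Members, lists and tests were chosen with earlier results of these data known. Named genes were all members, Kdm5a, the 3 genes most like each member and, per list and comparison, up to 4 called genes by smallest p, besides 6 marker genes named after their values were seen (Mixl1, Eomes, Tdgf1, Col1a1, Hand1 and Nes). In 5 simulated data sets of 10916 genes, for the genotype comparison with LIF, 16.4% of changes of 1 and 78.6% of changes of 2 on the log2 scale were recovered, with 4.04% false calls. The simulated noise was normal and independent between arrays, with no dim array. These rates therefore need not hold for the real comparison. Alternatives were quantile normalization, median centring, other pseudocounts and filters, array weights, every probe set on its own, a replicate block and leaving out each array. Pathway lists held genes of the region, the IGF system, imprint maintenance, other imprinted regions and CDK inhibitors. Undifferentiated ES cell, feeder fibroblast, extraembryonic endoderm, trophoblast, mesoderm and neuroectoderm markers were summed per array.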

Additional observations from a re-analysis of the deposited data

How the results depend on the processing

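Igf2 passed the test for withdrawal in both genotypes under all 20 alternatives, with adjusted p of at most 0.0048 in Rbp2-/- and 0.0026 in Rbp2f/f. Phlda2 did so in Rbp2-/-, with log2 differences between 1.01 and 2.54. The cause of the changes below was not tested, and 2 arrays a group and dim signal limit Ascl2, Kcnq1ot1 and Slc22a18. Replicate numbers paired the samples only in part. Deviations of same-numbered arrays correlated at 0.26 in the 3 pairs of groups without Rbp2f/f with LIF. In the 3 pairs with it they correlated between -0.08 and 0.00. The main fit held no replicate block, so any deviation shared by same-numbered arrays stayed in its spread. With replicate number as a block, 140 genes passed for genotype with LIF, 149 without LIF, 233 averaged and 9 for the interaction, and 1 member in each genotype comparison: Phlda2 with LIF (adjusted p = 0.026), Cdkn1c without LIF (0.036) and averaged (0.0036). The block also took Ascl2 past the threshold for withdrawal in Rbp2-/- (adjusted p = 0.018). Quantile normalization with the block gave 3, 30, 98 and 1 genes. For genotype with LIF, without LIF and averaged, the count of genes was 0, 0 and 14 with quantile normalization, 0, 0 and 9 with median centring, 0, 0 and 0 with no filter, 0, 479 and 7 with array weights, and 16, 0 and 20 with every probe set on its own. A 60th percentile filter gave 8 genes without LIF, a pseudocount of 1 gave 0 without LIF and 9 averaged, and one of 64 gave 51 and 87. Quantile normalization without replicate 2 of Rbp2-/- with LIF gave 0, 1 and 3. Withdrawal in Rbp2-/- gave 1628 genes with median centring, 1001 with array weights and 1629 with quantile normalization without that array, and in Rbp2f/f the last pair gave 3664 and 3292. Array weights called 1 member without LIF, Ascl2 (adjusted p = 0.037). Cd81 lost its call in Rbp2-/- with median centring (adjusted p = 0.17), array weights (0.089), and without replicate 1 (0.056) or 2 (0.17) of Rbp2-/- without LIF. Ascl2 gained its call in Rbp2-/- with median centring (adjusted p = 0.046).

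Leaving out each array in turn gave 0 to 2445 genes for genotype with LIF, 0 to 127 without LIF, 3 to 702 averaged, 0 to 1439 for the interaction, 1102 to 4520 for withdrawal in Rbp2-/- and 855 to 3296 in Rbp2f/f. The values 2445, 702, 1439 and 4520 were those without replicate 1 of Rbp2-/- with LIF, which leaves the dim array alone in its group. Members called were 0 to 2 for genotype with LIF, 0 to 1 without LIF, averaged and for the interaction, 3 to 4 for withdrawal in Rbp2-/- and 1 to 3 in Rbp2f/f. Without that replicate 1, Ascl2 passed for genotype with LIF (adjusted p = 0.014), averaged (0.037) and withdrawal in Rbp2f/f (0.0496), and Nap1l4 for genotype with LIF (-0.17, adjusted p = 0.044) and withdrawal in Rbp2-/- (0.21, adjusted p = 0.014). Without replicate 1 or 2 of Rbp2f/f without LIF, Ascl2 passed for withdrawal in Rbp2-/- (adjusted p = 0.033 and 0.034). Cdkn1c averaged passed without replicate 1 of that group (adjusted p = 0.034).

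Sign changes were seen 30 times, only among values that did not pass with all arrays. With 1 array left out, the ranges that crossed 0 were, for Igf2, -0.65 to 0.47 for genotype with LIF, -0.36 to 0.045 without LIF, -0.40 to 0.16 averaged and -0.62 to 0.50 for the interaction. For Ascl2 they were -1.43 to 0.80 for genotype with LIF and -2.11 to 0.11 for the interaction. For Cdkn1c they were -2.22 to 2.40 for withdrawal in Rbp2-/- and -3.00 to 1.62 for the interaction. For Phlda2 they were -0.39 to 1.14 for genotype without LIF and -0.033 to 0.45 for withdrawal in Rbp2f/f, and for Nap1l4 -0.048 to 0.065 for the interaction. Quantile normalization without the dim array gave 0.78 for Ascl2 genotype with LIF, and an interaction of 0.46 for Igf2 and -0.018 for Nap1l4. A pseudocount of 1 gave -0.20 for Cdkn1c withdrawal in Rbp2-/-. The interaction of Igf2 was 0.029 with no filter, and that of Nap1l4 was -0.050 with quantile normalization, with or without the replicate block, -0.012 with the 60th percentile filter and -0.029 with a pseudocount of 1. Ascl2 was not tested under the 60th percentile filter.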

Other observations

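The 11 trophoblast markers summed to 4524 and 3540 in Rbp2-/- without LIF, 2397 and 2034 in Rbp2f/f cells without LIF, 1454 and 697 in Rbp2-/- cells with LIF, and 1502 and 843 in Rbp2f/f cells with LIF. The brightest marker, Hand1, made most of the sums without LIF in Rbp2-/- cells. Without it, a setting chosen after seeing the data, the other 10 summed to 957 and 1671 in Rbp2-/- and 1286 and 1543 in Rbp2f/f cells without LIF, which overlap. The 9 neuroectoderm markers summed to 268 and 508 in Rbp2-/- without LIF, 486 and 603 in Rbp2f/f cells without LIF, 447 and 380 in Rbp2-/- cells with LIF, and 885 and 950 in Rbp2f/f cells with LIF. Without its brightest marker, Nes, the other 8 summed to 95.5 and 167 in Rbp2-/- and 141 and 163 in Rbp2f/f cells without LIF, and to 284 and 223 in Rbp2-/- and 565 and 644 in Rbp2f/f cells with LIF. These sums were not tested.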
